A study of Mus musculus with 122 samples.

Results

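The mouse MS4A genes studied here encode tetraspan membrane proteins, and Tmem176a and Tmem176b encode related proteins with the same membrane topology. The 8 genes were taken by gene name from 3 count tables of bulk RNA sequencing, each with 22050 genes, and all 8 were found: Tmem176a (ENSMUSG00000023367), Tmem176b (ENSMUSG00000029810), Ms4a7 (ENSMUSG00000024672), Ms4a6b (ENSMUSG00000024677), Ms4a6c (ENSMUSG00000079419), Ms4a6d (ENSMUSG00000024679), Ms4a4a (ENSMUSG00000101389) and Ms4a4c (ENSMUSG00000024675). They were followed through 99 mouse RNA libraries in 31 groups, most of them alveolar macrophages, the resident macrophages of the air spaces. The study compared macrophages carrying mutations of Cebpb, the gene of the transcription factor C/EBPβ, with matched controls, and added a deletion of Csf2rb, the shared signalling chain of the GM-CSF, IL-3 and IL-5 receptors. Chromatin was covered by peak lists from anti-C/EBPβ ChIP-seq and from ATAC-seq, which maps open chromatin.

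Adult alveolar macrophages came from bronchoalveolar lavage. The germline set used the C/EBPb tm1Pfj allele on a mixed background: Cebpb -/- cells sorted as CD11b high (n = 4) or CD11b low (n = 4), against Cebpb +/+ cells (n = 4). The same allele was sampled again in males (2 Cebpb -/- and 2 Cebpb +/+ libraries), facility 2 females (2 Cebpb -/- and 3 Cebpb +/+) and facility 1 females (2 Cebpb -/-, 3 Cebpb +/- and 2 Cebpb +/+). Conditional deletion on C57BL/6 used LyzM Cre/Cre Cebpb flox/flox (n = 2) against Cebpb flox/flox without Cre (n = 2), and CD11c +/Cre Cebpb flox/flox (n = 4) against CD11c +/Cre without the floxed allele (n = 3). LyzM Cre acts in macrophages, monocytes and granulocytes, and CD11c Cre acts in alveolar macrophages and dendritic cells. The Lip allele (C/EBPtm1.2Acle, mixed background) leaves the short C/EBPβ isoform LIP, which lacks most of the activation domain; Lip/Lip cells were sorted as CD11b high (n = 4) or CD11b low (n = 4), against Lip +/+ cells (n = 3). A further set matched to chromatin libraries held Cebpb -/- (n = 3) against +/+ (n = 3) and Lip/Lip (n = 4) against Lip +/+ (n = 4) cells.

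Fetal cells were sorted from whole lung at E18. Premature alveolar macrophages were Cebpb -/- (n = 4) against +/+ (n = 3), and Csf2rb -/- (Csf2rbtm1Cgb/J, C57BL/6, n = 3) against +/+ (n = 4). Ly6Chi fetal monocytes, which can give rise to alveolar macrophages, were Cebpb -/- (n = 4) against +/+ (n = 3). In mixed bone marrow chimeras, donor-derived macrophages were sorted from whole lung of lethally irradiated recipients, 8 to 12 weeks old, given a mix of CD11c +/Cre Cebpb flox/flox CD45.2 marrow (66%) and wild-type CD45.1 marrow (33%). The CD45.2 knockout and CD45.1 wild-type cells were sampled 10 weeks (n = 3 and 4) and 5 weeks (n = 4 and 3) after transfer. Host cells may remain in such lungs. The CD45.1 donors differ from the CD45.2 donors in strain as well as in Cebpb and Cre, and wild-type and mutant cells shared one host environment. The labels name no animals for the replicates, and the p-values therefore cover only the differences among these samples, some of which may be technical.

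MS4A proteins sit in the plasma membrane and in endosomes and are known to modulate the signalling of neighbouring receptors; the family includes a B cell surface antigen and the β chain of the high-affinity IgE receptor. Several members are expressed mainly by monocytes and macrophages, and MS4A4A associates with the glucan receptor Dectin-1 in macrophages. TMEM176A and TMEM176B are intracellular cation channels of late endosomal and Golgi-derived vesicles, best known from dendritic cells, where they are tied to MHC class II handling, and TMEM176B also restrains the inflammasome. In mouse, Ms4a7 is widely used as a marker of macrophages that derive from circulating monocytes or live at tissue borders, and MS4A6D acts with the receptor VSIG4 to dampen inflammasome genes in mouse macrophages.

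On GRCm38.p6 the 6 MS4A members lie in one cluster on chromosome 19, in the order Ms4a7 (chr19:11321039-11336146), Ms4a4a (chr19:11375488-11392915), Ms4a4c (chr19:11404717-11427246), Ms4a6c (chr19:11469353-11487182), Ms4a6b (chr19:11518559-11530403) and Ms4a6d (chr19:11586606-11604804). Tmem176b (chr6:48833811-48845948, minus strand) spans Tmem176a (chr6:48841483-48845364, plus strand) completely. The start sites used here, 3 for Tmem176b and 2 for Tmem176a, lie between 109 and 668 bp apart. None of the 3 is at chr6:48845948, the end where a minus-strand transcript of the full Tmem176b span would begin. Whether reads were counted by strand was not stated, so reads from the shared stretch cannot be assigned to 1 of the 2 genes. Ms4a6b, Ms4a6c and Ms4a6d, like Ms4a4a and Ms4a4c, are paralogues between which similar reads could be split.

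RefSeq promoter windows of 300 bases (250 before to 50 after a start site, GRCm38.p6) were matched to 7 of the 8 members, 11 windows in all. Both strands were searched for 3 motifs: the C/EBP core TTGCNNAA, the core of the interferon-stimulated response element and the PU.1 motif AGGAAGT. The C/EBP core occurred in none of the 11 member windows, against 10.8% of all 32851 windows, and the interferon motif in none, against 3.44%. The PU.1 motif, named for the Ets factor that acts across the macrophage lineage, occurred in 5 of the 11 windows, from 4 genes (Tmem176a, Tmem176b, Ms4a6b and Ms4a6c), against 9.35% of all windows; these windows are not independent, because those of the TMEM176 genes overlap. A match says only that these letters are in the window. The windows below are shown because they hold this shared motif, in capitals in either orientation, at the start sites of Tmem176a and of 2 paralogues; all are written 5′ to 3′ on the plus strand.
Tmem176a, chr6:48841233-48841532: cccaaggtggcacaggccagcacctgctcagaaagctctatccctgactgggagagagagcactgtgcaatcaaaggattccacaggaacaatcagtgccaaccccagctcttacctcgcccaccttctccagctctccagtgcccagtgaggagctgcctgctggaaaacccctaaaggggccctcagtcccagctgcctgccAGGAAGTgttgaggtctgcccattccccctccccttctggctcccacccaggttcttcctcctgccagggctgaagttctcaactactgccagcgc
Ms4a6c, chr19:11469118-11469417: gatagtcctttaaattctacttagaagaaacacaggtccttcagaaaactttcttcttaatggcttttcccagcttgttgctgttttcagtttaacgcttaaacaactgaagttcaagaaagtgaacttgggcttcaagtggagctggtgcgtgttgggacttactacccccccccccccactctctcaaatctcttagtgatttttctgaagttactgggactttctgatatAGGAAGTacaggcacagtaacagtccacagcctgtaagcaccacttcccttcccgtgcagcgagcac
Ms4a6b, chr19:11518309-11518608: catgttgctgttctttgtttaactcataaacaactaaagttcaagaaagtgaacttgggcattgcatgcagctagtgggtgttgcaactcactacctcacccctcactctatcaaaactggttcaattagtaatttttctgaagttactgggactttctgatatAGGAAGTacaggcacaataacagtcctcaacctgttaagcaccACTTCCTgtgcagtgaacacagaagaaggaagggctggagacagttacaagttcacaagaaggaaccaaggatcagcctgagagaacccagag
The motif lay 46 bases before the first Tmem176a start, and the same bases, read on the minus strand, fell in a Tmem176b window at -69. Ms4a6b and Ms4a6c shared an identical run of 48 bases with the motif in it (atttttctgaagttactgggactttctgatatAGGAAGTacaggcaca), which began at -49 in Ms4a6c and at -118 in Ms4a6b. Ms4a6b had a second match nearer to its start, on the other strand.

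Library totals ran between 642269 and 17834909 counts, with 9387 to 13579 genes detected, and 3 counts corresponded to between 0.163 and 5.20 CPM (read counts scaled to a common library total). Cebpb itself checked the labels: in every Cebpb deletion its CPM lay below every control library of its experiment, with log2 fold changes between -5.34 and -2.95, whereas Lip/Lip cells kept Cebpb transcripts (665 to 1003 CPM against 502 to 685 in Lip +/+). Csf2rb -/- cells had 293 to 360 CPM of Csf2rb, against 763 to 1175 in +/+ cells. Alveolar macrophage markers (11 genes, Siglecf, Marco, Car4 and others, with Chil3 also in the monocyte list and Mrc1 in the interstitial list) were low in the mutants, for example 689 to 1704 CPM in sum in Cebpb -/- CD11b high cells, against 9535 to 11780 in +/+ cells. The expression differences below therefore stand beside a large shift in marker genes, and bulk RNA cannot tell fewer cells of a type from less RNA per cell.

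Each experiment was tested by itself with edgeR's quasi-likelihood test, p-values were adjusted over all its tested genes by Benjamini-Hochberg, and genes under an adjusted p of 0.05 were called. Over 21 comparisons of groups, Tmem176b was tested in 20 and called higher in 15 and lower in 1, and Tmem176a was tested in 19 with the same counts. Ms4a7 was higher in 11 and lower in 2 of 21, Ms4a6c higher in 8 and lower in 3 of 21, and Ms4a6d higher in 7 and lower in 2 of 21. Ms4a4c and Ms4a6b passed the filter on low counts in 12 comparisons each and were called higher in 3 and lower in 2. Ms4a4a passed in 1 and was not called. Comparisons that share a control group are not independent. The median log2 fold change of the tested members was 4.13 in Cebpb -/- CD11b high cells, 2.13 in CD11b low cells, 4.71 in facility 2 females, 4.38 in the chromatin-matched set and 3.92 in Csf2rb -/- cells. With genes absent from 1 group set at their bound it was 2.56 in males and 3.23 in facility 1 females. It was 1.35 with CD11c Cre, 0.70 with LyzM Cre, 0.07 and 0.68 in Lip/Lip CD11b high and low cells, 0.27 and -0.01 in E18 Cebpb -/- macrophages and monocytes, and 1.22 and 1.01 in chimera knockout cells at 10 and 5 weeks. The median over all tested genes lay between -0.08 and 0.04 in every comparison. A member that passed the filter only through the group in which it is high had to differ, so counts are given for the members tested and not read as a share of the family.

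**Figure D1:**
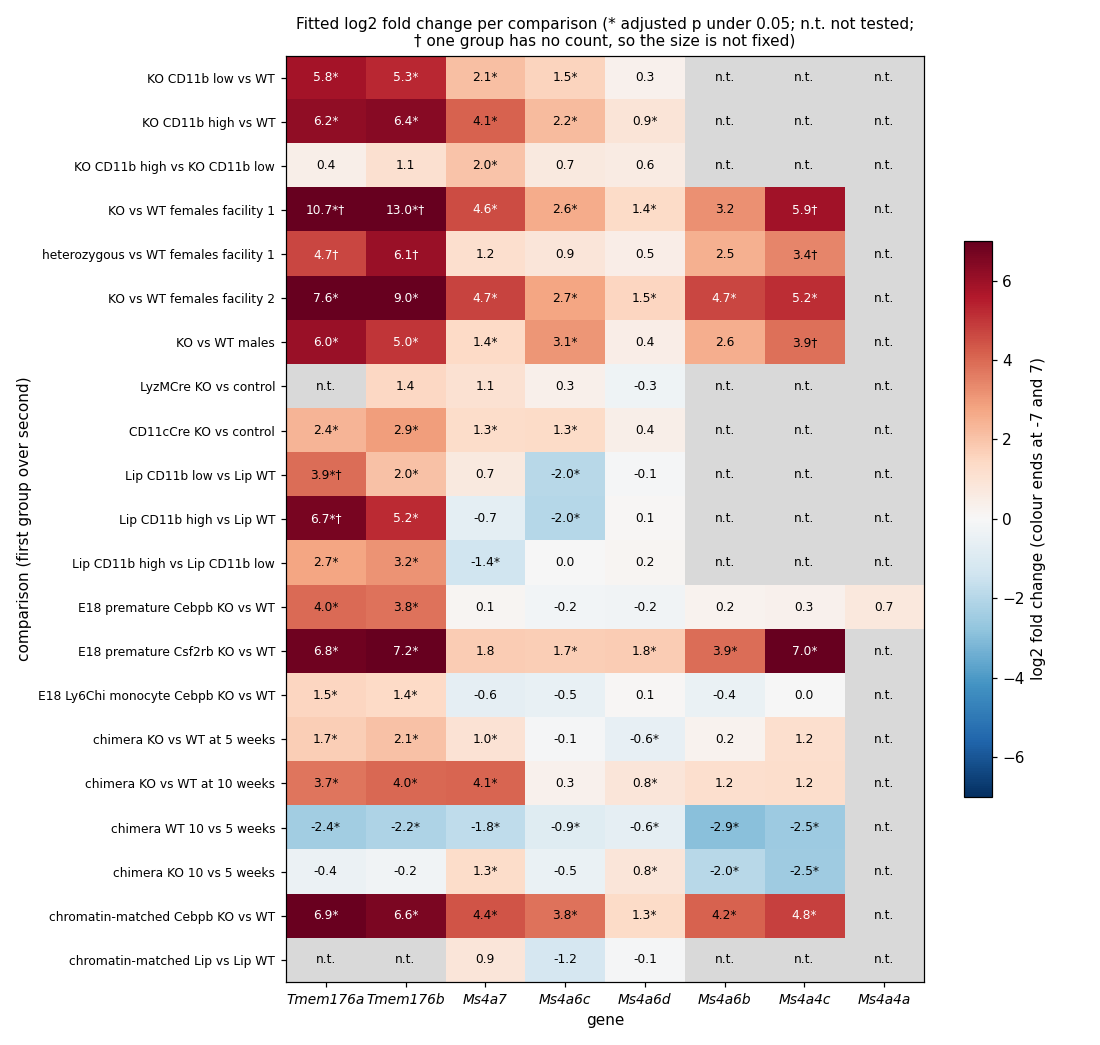
Log2 fold changes of the 8 genes (columns) in the 21 comparisons of groups (rows), each with the mutant, CD11b high or later group over the other. An asterisk marks an adjusted p under 0.05 in edgeR's quasi-likelihood test, n.t. a gene that did not pass the filter, and a dagger a fold against or of a group with no count, whose size is not fixed. The Tmem176a and Tmem176b columns are called higher in 15 comparisons each, while the Ms4a6c column is called higher in 8 and lower in 3.

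The first comparison asked what germline loss of C/EBPβ did in adult alveolar macrophages. In Cebpb -/- CD11b high cells Tmem176a, Tmem176b, Ms4a7, Ms4a6c and Ms4a6d were all higher than in Cebpb +/+ cells, 5 of the 5 members tested, where 24.0% of 8502 genes were called in either direction and 12.2% upward. Tmem176b had 93.0, 142, 133 and 95.2 CPM in CD11b high Cebpb -/- libraries, against 0, 2.74, 0 and 3.11 CPM in Cebpb +/+ libraries. Tmem176a had 14.5, 36.6, 31.6 and 26.8 CPM, against 0, 0, 0 and 1.04 CPM. The pair was near absent in wild-type cells, and no library of one genotype reached the range of the other. The log2 fold change of Tmem176b was 6.37 (SE 0.55, adjusted p = 5.2e-08); for Tmem176a, with 1 count in all +/+ libraries together, the ratio of summed counts was 105 (95% counting interval 18.5 to 4160).

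Ms4a7, the monocyte-derived macrophage marker, stood at 175, 221, 202 and 207 CPM in Cebpb -/- CD11b high libraries, against 4.02, 8.21, 17.4 and 12.4 CPM in +/+ libraries (log2 fold change 4.13, SE 0.30, adjusted p = 6.1e-09). Ms4a6c had 86.9, 157, 162 and 139 CPM, against 14.7, 10.9, 50.2 and 34.2 CPM (2.21, SE 0.34, adjusted p = 5.9e-05). Ms4a6d, the VSIG4 partner, had 212, 229, 195 and 235 CPM, against 102, 105, 142 and 114 CPM (0.91, SE 0.19, adjusted p = 0.00125). All 3 pairs of ranges were apart. Ms4a4c (2.55 to 8.43 CPM against 0 to 1.34) and Ms4a6b (2.29 to 19.2 CPM against 0 to 1.34) stayed under the filter, with ratios of summed counts of 7.52 (counting interval 2.34 to 38.5) and 12.0 (3.07 to 104). Ms4a4a had no count in any of the 12 libraries.

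In Cebpb -/- CD11b low cells 4 of 5 tested members were higher than in +/+ cells, where 15.1% of genes were called and 8.29% upward. Tmem176b had 24.2, 65.9, 78.7 and 45.3 CPM (log2 fold change 5.26, SE 0.58, adjusted p = 2.2e-06), Tmem176a 6.91, 29.5, 28.9 and 17.6 CPM, Ms4a7 38.7, 67.7, 40.2 and 60.4 CPM (2.13, adjusted p = 6.6e-05) and Ms4a6c 68.4, 71.1, 99.7 and 103 CPM (1.55, adjusted p = 0.00358), all above the +/+ ranges given above. Ms4a6d, at 125 to 182 CPM against 102 to 142 CPM, overlapped and was not called (0.31, adjusted p = 0.299). Set directly against each other, CD11b high and CD11b low Cebpb -/- cells differed in 1 of 5 members, where 3.80% of genes were called and 1.19% upward. Ms4a7 was higher in CD11b high cells (2.00, SE 0.26, adjusted p = 0.000123). Tmem176b was 1.11 higher with non-overlapping ranges but an adjusted p of 0.0693, which became 0.0440 without CD11b low replicate 3. Markers of interstitial or monocyte-derived macrophages (C1qa, Csf1r, Cx3cr1 and others, 9 genes) summed to 5490 to 7171 CPM in CD11b high and 3916 to 8954 CPM in CD11b low Cebpb -/- cells, against 1227 to 1373 CPM in +/+ cells; 5 of the 7 tested rose and 1 fell in each comparison, with Folr2 at 0 in +/+ cells. Their part in the result was not tested. Dendritic cell markers (7 genes) summed to 5.33 to 19.2 CPM in the CD11b high sort (Xcr1, Clec9a and Siglech at 0) and 4.15 to 90.6 CPM in the CD11b low sort, against 1.34 to 6.69 CPM in +/+ cells.

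**Figure D2:**
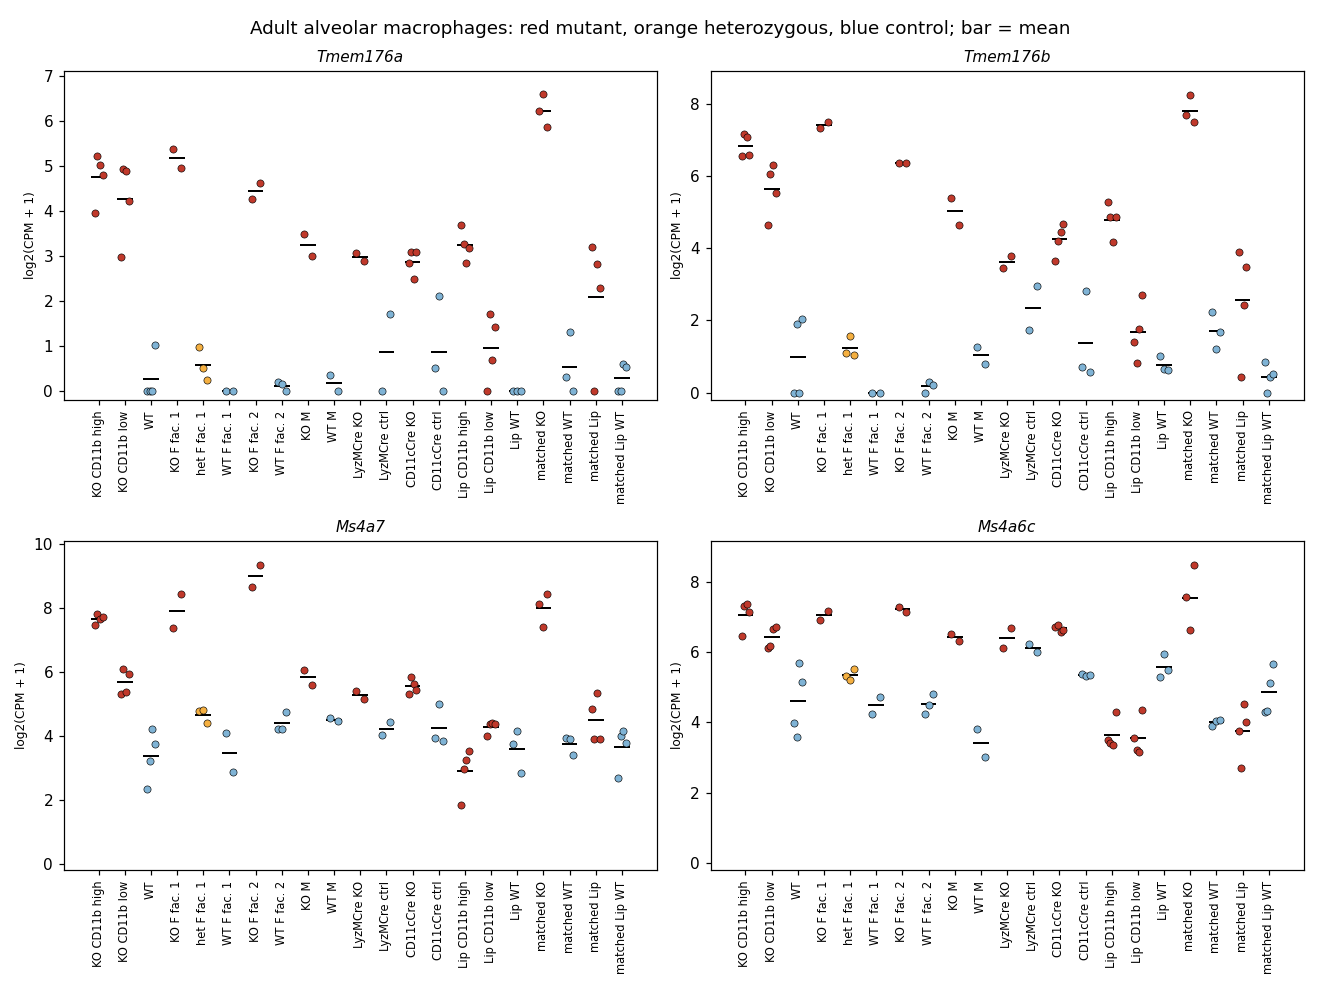
Log2(CPM + 1) of Tmem176a, Tmem176b, Ms4a7 and Ms4a6c in every adult lavage library, 1 point per library with a bar at the group mean, each mutant group left of its control. Both TMEM176 genes are higher in every germline Cebpb -/- library than in any +/+ library of its experiment, and Ms4a6c lies below its control in every library of both Lip/Lip sorts.

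The same allele was then compared between facilities and sexes. In males 4 of 7 tested members were higher in Cebpb -/- cells, where 10.9% of 11040 genes were called and 7.12% upward. In facility 2 females 7 of 7 were higher (47.6% called, 24.9% upward), and in facility 1 females 5 of 7 (23.2% called, 12.5% upward). In males Tmem176b had 41.1 and 23.9 CPM in Cebpb -/- cells, against 1.41 and 0.740 CPM in +/+ cells (log2 fold change 4.98, SE 0.42, adjusted p = 4.9e-07). It had 81.6 and 80.5 CPM in facility 2 Cebpb -/- females, against 0, 0.230 and 0.158 CPM in +/+ females, a ratio of summed counts of 591 (counting interval 202 to 2870). In facility 1 it had 159 and 178 CPM in Cebpb -/- females and no count in either +/+ library, which makes it at least 431-fold higher, against a floor of 3 counts over the group; Tmem176a, at 40.6 and 30.3 CPM against 0 and 0, was at least 92.4-fold higher. The direction was the same in the 3 settings and the ranges never met.

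Ms4a7 had 65.0 and 47.6 CPM in male Cebpb -/- cells, against 22.3 and 20.9 CPM in +/+ (log2 fold change 1.39, SE 0.39, adjusted p = 0.0293). The male call was lost without Cebpb -/- replicate 1 (adjusted p = 0.184), +/+ replicate 1 (0.145) or +/+ replicate 2 (0.199). With all libraries kept, the male call was also lost with no filter on low counts (adjusted p = 0.099). The same held with a replicate block (0.0595) and in 1 fit over the whole table (0.183). Ms4a7 had 405 and 649 CPM in facility 2 Cebpb -/- females against 17.6, 17.7 and 25.5 CPM in +/+ (4.71, SE 0.35, adjusted p = 3.3e-08). In facility 1 it had 164 and 348 CPM in Cebpb -/- females against 15.9 and 6.23 CPM in +/+ (4.56, SE 0.44, adjusted p = 1.7e-06). All these ranges were apart, by far less in males. The difference of the effects themselves, males minus the mean of the 2 female sets, was -3.25 for Ms4a7 (SE 0.48, adjusted p = 0.00102), 1 of 3 members called lower in that test, in which 10.6% of genes were called and 4.43% downward. The second was Tmem176b (-6.01, SE 1.04, adjusted p = 0.00271), whose size is not fixed because it rests in part on the facility 1 +/+ libraries at 0. The third was Ms4a6d (-0.99, adjusted p = 0.0407), lost without male Cebpb -/- replicate 1 (0.148) or 2 (0.125), male +/+ replicate 1 (0.137) or 2 (0.132), facility 2 +/+ replicate 2 (0.0639) or 3 (0.0638), facility 1 Cebpb -/- replicate 2 (0.0915) or facility 1 +/+ replicate 1 (0.0661) or 2 (0.0686). Sex and facility are not separated here, because the labels name no facility for the males. Ms4a6c was the only tested member with a male effect (3.11, SE 0.28, adjusted p = 5.3e-07) at or above those in females (2.74 and 2.59); its difference was not called (0.45, adjusted p = 0.396).

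Between facilities no member was called in the difference of effects (0 of 7 by edgeR, where 7.61% of genes were called; 0 of 7 had an unadjusted p under 0.05, and DESeq2 called 0). The low genes are given by value, and no facility difference is read from them. Over leave-one-out fits the difference of effects ran from -1.98 to 1.88 for Ms4a4c and from -1.45 to 2.46 for Ms4a6b. The size of the Ms4a4c effect in facility 1 is not fixed, because its +/+ libraries had no count. Ms4a4c had 22.6 and 6.35 CPM in facility 2 Cebpb -/- females, against 0.431, 0.230 and 0.475 CPM in +/+ (5.16, adjusted p = 9.9e-05), but 0.180 and 2.45 CPM in facility 1 Cebpb -/- females, against 0 and 0 (adjusted p = 0.0658). Ms4a6b had 10.7 and 4.91 CPM, against 0.431, 0.344 and 0 CPM, in facility 2 (4.68, adjusted p = 0.000103) and 1.26 and 1.56 CPM, against 0.283 and 0 CPM, in facility 1 (adjusted p = 0.0913). Type I interferon response genes (15) summed to 1492 to 2734 CPM in facility 2 Cebpb -/- females, against 219 to 267 CPM in +/+, and to 222 to 373 CPM in facility 1 Cebpb -/- females, against 235 to 246 CPM; 14 of 15 and 5 of 15 rose. The share of mitochondrial counts was 0.886 to 1.22% in facility 2 Cebpb -/- libraries, against 0.039 to 0.058% in +/+ libraries, and 0.224 and 0.484% in facility 1 Cebpb -/- libraries, against 0.144 and 0.063% in +/+ libraries. The part of either in the Ms4a4c and Ms4a6b values was not tested.

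None of 7 members was called in Cebpb +/- against +/+ facility 1 females, where 0.634% of genes were called. DESeq2 called 1, and 216 of 9796 genes in all. An unadjusted p under 0.05 was found for 4 of 7, but the share of all genes under that cutoff was not counted. Tmem176b had 1.12, 1.96 and 1.04 CPM in +/- libraries, against 0 and 0 CPM in +/+ libraries (adjusted p = 0.0695), at least 3.62-fold higher. Ms4a7 had 26.3, 26.9 and 20.0 CPM, against 15.9 and 6.23 CPM (log2 fold change 1.17, SE 0.40, adjusted p = 0.232). Ms4a6c had 38.8, 36.1 and 44.5 CPM, against 17.9 and 25.4 CPM (0.87, SE 0.24, adjusted p = 0.110). The +/- libraries lay above both +/+ libraries for all 7 tested members, in a comparison of 3 against 2 libraries. The share of all genes separated in this way was not counted, so no gene-dose effect is read from it. Some members rest on few reads: Ms4a4c had 4 counts over the +/- libraries against 0, Tmem176a 10 against 0 and Ms4a6b 16 against 1.

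Conditional deletion was then compared with matched controls for each Cre line. With CD11c Cre, 4 of 5 tested members were higher in Cebpb flox/flox cells than in Cre controls, where 16.8% of 9992 genes were called and 10.3% upward. Tmem176b had 11.5, 17.4, 20.7 and 24.7 CPM in CD11c +/Cre Cebpb flox/flox libraries, against 0.633, 6.00 and 0.495 CPM in CD11c +/Cre libraries (2.94, SE 0.56, adjusted p = 0.00294). Tmem176a had 6.21, 7.45, 4.60 and 7.45 CPM, against 0.422, 3.29 and 0 CPM (2.38, SE 0.65, adjusted p = 0.0244). In both genes control replicate 2 was the highest control library and still lay below every knockout library. The Tmem176a call was lost without knockout replicate 2 (adjusted p = 0.0632) or 4 (0.0730) and without control replicate 1 (0.120) or 3 (0.0679), and that of Tmem176b without knockout replicate 4 (0.0560). Ms4a7 had 38.7, 56.6, 48.3 and 41.9 CPM, against 14.4, 30.6 and 13.2 CPM (1.27, SE 0.26, adjusted p = 0.00484). The Ms4a7 call was lost in 1 fit over the whole table (1.25, adjusted p = 0.0816). Ms4a6c had 104, 108, 94.3 and 97.8 CPM, against 40.5, 39.1 and 39.4 CPM (1.35, SE 0.11, adjusted p = 5.9e-06). Ms4a6d (141 to 232 CPM against 132 to 161 CPM) was not called (0.41, adjusted p = 0.116) but was without knockout replicate 4 (0.54, adjusted p = 0.000832). Ms4a6b, under the filter, had 1.02 to 3.47 CPM in knockout libraries, against 0 to 0.422 CPM in controls. It was called higher with no filter on low counts (2.94, adjusted p = 0.0112), with DESeq2 (0.0150) and in 1 fit over the whole table (0.0215). It was not called in edgeR fits without any one control replicate (0.0552 to 0.0931).

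With LyzM Cre, none of the 4 tested members was called by edgeR, where 4.68% of 8654 genes were called, and DESeq2 called 0. An unadjusted p under 0.05 was found for 2 of 4, but the share of all genes under that cutoff was not counted. Tmem176b had 9.91 and 12.8 CPM in LyzM Cre/Cre Cebpb flox/flox libraries, against 2.33 and 6.79 CPM in Cebpb flox/flox libraries (1.43, SE 0.57, adjusted p = 0.272), and Ms4a7 40.9 and 34.2 CPM, against 15.1 and 20.4 CPM (1.06, SE 0.33, adjusted p = 0.127). The ranges of both genes were apart in the same direction as with CD11c Cre. Leaving out 1 knockout library leaves the other to be assumed as variable as the 2 controls. In that setting, without knockout replicate 1, where 1877 of 9275 genes were called, Tmem176a (2.64, adjusted p = 0.0282), Tmem176b (1.57, adjusted p = 0.00982), Ms4a7 (0.98, adjusted p = 0.00108) and Ms4a6c (0.56, adjusted p = 0.00646) were called higher. Without knockout replicate 2, where 2747 of 8806 genes were called, Ms4a7 (1.23, adjusted p = 0.00525) was called higher and Ms4a6d (-0.75, adjusted p = 0.00289) lower. The remaining Cebpb was 25.5 to 58.2 CPM in LyzM knockout libraries, against 287 to 310 CPM in controls, the smallest fold of all deletions.

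The Lip comparison set cells with only the short isoform against wild type. Ms4a6c was lower in both Lip/Lip sorts, and the TMEM176 genes were higher in the CD11b high sort. Ms4a6c had 10.3, 9.61, 9.25 and 18.5 CPM in Lip/Lip CD11b high libraries and 10.7, 8.29, 7.85 and 19.5 CPM in Lip/Lip CD11b low libraries, against 38.3, 60.4 and 43.6 CPM in Lip +/+ libraries. The log2 fold changes were -2.0 (SE 0.27, adjusted p = 1.2e-07) and -1.96 (SE 0.25, adjusted p = 8.9e-08), with no overlap, against rises of 1.35 to 3.82 in the germline and CD11c Cre deletions of adult lavage cells; the 2 kinds of mutant were never in 1 fit, and the difference was not tested. In Lip/Lip CD11b high cells Tmem176b had 37.7, 27.9, 17 and 28.2 CPM, against 1.03, 0.575 and 0.552 CPM, a ratio of summed counts of 41.2 (counting interval 13.8 to 202), and Tmem176a had 12.0, 8.65, 6.16 and 8.04 CPM, against no count, at least 13.0-fold higher. In all, 2 of 5 tested members rose and 1 fell in CD11b high cells, where 39.3% of 8918 genes were called, 20.8% upward and 18.5% downward. The same counts held in CD11b low cells, where 25.8% were called, 14.0% upward and 11.8% downward.

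In Lip/Lip CD11b low cells the TMEM176 values were small: 1.64, 0.753, 2.42 and 5.50 CPM of Tmem176b and 0, 2.26, 0.604 and 1.69 CPM of Tmem176a, both overlapping the Lip +/+ libraries. Their calls (adjusted p = 0.045 and 0.04995) did not hold. That of Tmem176b was lost without Lip/Lip replicate 4 (0.365) or any one of the Lip +/+ replicates (0.0578 to 0.150). That of Tmem176a was lost without Lip/Lip replicate 2 (0.0980) or 4 (0.116) or any one Lip +/+ replicate (0.0922 to 0.149). Both were lost with DESeq2, in 1 fit over the whole table, and with the replicate number as a block (adjusted p = 0.0806 for Tmem176b and 0.0658 for Tmem176a), which leaves 1 member called, Ms4a6c. Directly compared, Lip/Lip CD11b high cells were above CD11b low cells for Tmem176b (3.17, SE 0.35, adjusted p = 7.1e-10) and Tmem176a (2.75, SE 0.55, adjusted p = 0.000149). They were below them for Ms4a7 (-1.37, SE 0.31, adjusted p = 0.000921). In all, 3 of 5 members were called, where 19.5% of genes were called, 10.1% upward and 9.48% downward. The Ms4a7 call was lost in 1 fit over the whole table (-1.39, adjusted p = 0.253). Ms4a7 had 2.57, 6.73, 8.48 and 10.5 CPM in Lip/Lip CD11b high libraries, the lowest group mean of the series. It had 14.8, 19.6, 19.9 and 19.5 CPM in CD11b low libraries, against 12.4, 16.7 and 6.07 CPM in Lip +/+ libraries. Neither sort was called against Lip +/+ (adjusted p = 0.135 and 0.0870). Without Lip +/+ replicate 3 the CD11b high value was called (-1.06, adjusted p = 0.0238), and without Lip +/+ replicate 2 the CD11b low value was (1.13, adjusted p = 0.0237). In the germline knockout the CD11b high sort had been the one with more Ms4a7. Ms4a6d (90.8 to 140 CPM and 95.7 to 110 CPM, against 102 to 113 CPM) was not called in either sort.

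The chromatin-matched set repeated both genotypes. All 7 tested members were higher in Cebpb -/- than in +/+ cells, where 27.2% of 10262 genes were called and 14.6% upward. Tmem176b had 205, 304 and 178 CPM in Cebpb -/- libraries, against 3.69, 1.29 and 2.2 CPM in +/+ libraries (6.60, SE 0.37, adjusted p = 3.6e-06). Tmem176a had 74.4, 95.5 and 57.7 CPM, against 0.231, 1.47 and 0 CPM. Ms4a7 had 276, 168 and 345 CPM, against 14.3, 14.0 and 9.54 CPM (4.38, SE 0.31, adjusted p = 1.2e-05). No range of these genes met that of the other genotype. Ms4a6c had 187, 96.7 and 354 CPM, against 13.8, 15.5 and 15.8 CPM (3.82, SE 0.46, adjusted p = 0.000695), and Ms4a4c 31.8, 12.5 and 103 CPM, against 1.85, 2.02 and 1.47 CPM (4.78, SE 0.90, adjusted p = 0.00825). In these 2 genes, and in Ms4a6b (9.61, 4.36 and 28.4 CPM against 0, 0.920 and 1.28 CPM), the third Cebpb -/- library was highest and the second lowest. Interferon response genes summed to 1631 to 7382 CPM in Cebpb -/- libraries, against 276 to 299 CPM in +/+, with 15 of 15 called higher, and their part in the result was not tested.

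In the matched Lip/Lip cells, 0 of 3 tested members were called by edgeR, where 4.94% of 9491 genes were called. An unadjusted p under 0.05 was found for 2 of 3, but the share of all genes under that cutoff was not counted. Ms4a6c had 12.6, 5.50, 22.0 and 15.2 CPM in Lip/Lip libraries, against 18.7, 18.8, 34.0 and 49.4 CPM in Lip +/+ (-1.15, SE 0.39, adjusted p = 0.133), in the direction of the lavage set with ranges that overlapped. Tmem176b, under the filter, had 13.9, 0.344, 4.41 and 10.0 CPM, against 0.780, 0, 0.338 and 0.437 CPM, and Tmem176a 8.20, 0, 6.10 and 3.85 CPM, against 0, 0, 0.507 and 0.437 CPM. Lip/Lip replicate 2 was the library without the rise. Both were called with no filter on low counts (4.20 with adjusted p = 0.00436, and 3.65 with adjusted p = 0.0264), with DESeq2, in 1 fit over the whole table, and without that library (4.58 with adjusted p = 0.000891, and 4.02 with adjusted p = 0.00438). In edgeR fits without any one Lip +/+ library, Tmem176a was not called (adjusted p between 0.109 and 0.135). Tmem176b was called in these fits except without Lip +/+ replicate 3 (0.0593).

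In E18 premature alveolar macrophages 2 of 8 tested members were called higher in Cebpb -/- cells, where 21.5% of 10047 genes were called and 12.0% upward: the TMEM176 pair. Tmem176b had 1431, 1347, 1271 and 1247 CPM in Cebpb -/- libraries, against 147, 68.8 and 69.9 CPM in +/+ libraries (3.80, SE 0.32, adjusted p = 1.6e-06). Tmem176a had 630, 492, 568 and 689 CPM, against 56.8, 34.7 and 20.5 CPM (3.99, SE 0.33, adjusted p = 1.5e-06). These were the highest levels of both genes in the series, and the groups were far apart. The other 6 overlapped. Ms4a7 had 21.0, 24.3, 13.6 and 18 CPM, against 16.5, 23.6 and 12.9 CPM (0.13, SE 0.31, adjusted p = 0.817), and Ms4a6c 157, 189, 149 and 111 CPM, against 218, 149 and 151 CPM (-0.19, SE 0.22, adjusted p = 0.599). Ms4a6b, Ms4a4c, Ms4a6d and Ms4a4a had log2 fold changes between -0.25 and 0.74. The rise of Ms4a7 and Ms4a6c seen in adult Cebpb -/- cells was not detected at E18. The 2 ages were not in 1 fit, and the difference was not tested. Dendritic cell markers summed to 354 to 784 CPM in Cebpb -/- libraries, against 15.0 to 20.0 CPM in +/+, with 4 of 4 tested called higher and Xcr1 at 0 in both genotypes; their part in the TMEM176 values was not tested.

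Ly6Chi fetal monocytes showed the same pair at a smaller size. Tmem176b had 201, 306, 279 and 226 CPM in Cebpb -/- monocytes, against 103, 88.5 and 102 CPM in +/+ (1.37, SE 0.19, adjusted p = 0.000314), and Tmem176a 146, 113, 88.6 and 123 CPM, against 40.9, 44.1 and 41.4 CPM (1.48, SE 0.20, adjusted p = 0.000228). They were the 2 called among 7 tested members, where 3.62% of 9214 genes were called and 1.99% upward. Dendritic markers stayed between 8.82 and 23.0 CPM in sum in Cebpb -/- monocytes, against 6.95 to 11.3 CPM in +/+, with 0 of 2 tested called. Among wild-type groups, Ms4a6b, Ms4a6c, Ms4a6d, Ms4a4c and Ms4a4a each had their highest mean in these monocytes. Ms4a6c had 656, 470, 633 and 587 CPM in Cebpb -/- monocytes, against 828, 806 and 878 CPM in +/+, with ranges that did not meet and no call (-0.51, SE 0.18, adjusted p = 0.152). Neutrophil markers summed to 367 to 425 CPM in Cebpb -/- monocytes, against 1268 to 2074 CPM in +/+, and epithelial markers to 7.86 to 958 CPM, against 8.85 to 64.2 CPM; their part in the values was not tested.

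**Figure D3:**
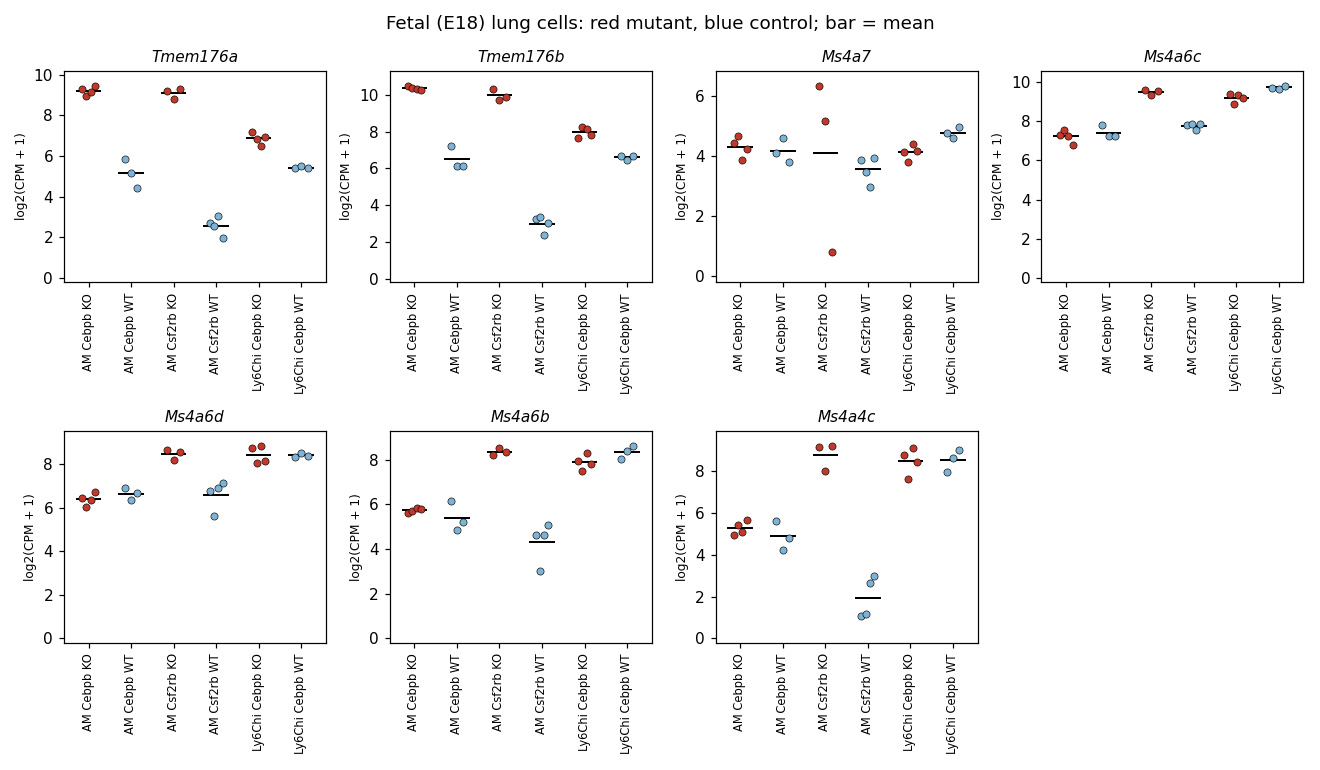
Log2(CPM + 1) of 7 members in the 6 groups of E18 cells, 1 point per library with a bar at the group mean, each knockout group left of its wild type. The TMEM176 genes are higher in all 3 knockouts, and Ms4a4c, Ms4a6b, Ms4a6c and Ms4a6d are higher in Csf2rb -/- cells.

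In E18 premature macrophages 6 of 7 tested members were higher in Csf2rb -/- cells, where 22.5% of 9422 genes were called and 11.0% upward. The Csf2rb -/- libraries stood apart in genes detected, with 9387 to 9418, against 11639 to 12557 in +/+ libraries, and its part in the result was not tested. Tmem176b had 1305, 859 and 965 CPM in Csf2rb -/- libraries, against 8.39, 9.11, 4.25 and 7.02 CPM in +/+ libraries (7.16, SE 0.31, adjusted p = 1.9e-06). Tmem176a had 588, 452 and 624 CPM, against 5.47, 4.96, 7.20 and 2.94 CPM (6.80, SE 0.33, adjusted p = 3.1e-06). Ms4a4c had 562, 258 and 576 CPM, against 1.09, 1.21, 5.24 and 6.77 CPM (6.97, SE 0.62, adjusted p = 7.6e-05). For each of these genes, every Csf2rb -/- library was far above any +/+ library. Ms4a6b had 298, 367 and 321 CPM, against 24.1, 6.96, 23.6 and 32.3 CPM (3.92, SE 0.44, adjusted p = 0.000288), and Ms4a6c 760, 639 and 740 CPM, against 224, 227, 187 and 227 CPM (1.72, SE 0.17, adjusted p = 0.000132). Ms4a6d had 397, 290 and 376 CPM, against 108, 48.8, 118 and 139 CPM (1.78, SE 0.33, adjusted p = 0.00421).

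Ms4a7 was the exception in Csf2rb -/- cells, with 80.3, 35.5 and 0.749 CPM against 13.9, 10.2, 6.87 and 14.4 CPM (1.77, SE 0.95, adjusted p = 0.227). The third knockout library stood below all others, and without it Ms4a7 was called (2.35, adjusted p = 0.00929). The levels of Ms4a4c and Ms4a6b in Csf2rb -/- macrophages overlapped those of Ly6Chi monocytes (196 to 542 CPM and 180 to 388 CPM over both monocyte genotypes), which were sorted and normalized in another experiment. Those of Ms4a6c overlapped the Cebpb -/- monocytes (470 to 656 CPM) and lay below the +/+ monocytes (806 to 878 CPM). Monocyte markers (8 genes) summed to 2614 to 3597 CPM in Csf2rb -/- cells, against 669 to 864 CPM in +/+, with 5 of 8 called higher. Interferon response genes summed to 3947 to 7472 CPM, against 277 to 519 CPM, with 14 of 14 higher. Erythroid markers summed to 5524 to 7741 CPM, against 1556 to 2874 CPM. The part of each in the MS4A values was not tested. Cebpb was not called in Csf2rb -/- cells (2222 to 2822 CPM against 2558 to 3445 CPM, -0.26, adjusted p = 0.318).

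Bone marrow chimeras placed Cebpb-deficient and wild-type cells in the same lungs. At 10 weeks 4 of 7 tested members were higher in knockout cells, where 45.5% of 11136 genes were called and 24.5% upward, and at 5 weeks 3 of 7 were higher and 1 lower, where 22.5% were called, 12.1% upward and 10.5% downward. Tmem176b had 365, 753 and 622 CPM in knockout cells at 10 weeks, against 51.6, 40.8, 19.3 and 29.9 CPM in their wild-type neighbours (4.02, SE 0.29, adjusted p = 1.5e-07). At 5 weeks it had 611, 632, 762 and 729 CPM in knockout cells, against 132, 190 and 165 CPM in wild-type (2.08, SE 0.29, adjusted p = 0.000198). Tmem176a had 120, 335 and 375 CPM in knockout cells at 10 weeks, against 25.0, 26.1, 11.6 and 19.4 CPM in wild-type (3.74, SE 0.38, adjusted p = 4.3e-06). At 5 weeks it had 261, 320, 466 and 431 CPM in knockout cells, against 91.4, 139 and 104 CPM in wild-type (1.73, SE 0.36, adjusted p = 0.00428). Knockout and wild-type ranges were apart at both times.

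Ms4a7 had 305, 463 and 244 CPM in knockout cells at 10 weeks, against 31.5, 21.2, 11.6 and 13.7 CPM in wild-type (4.08, SE 0.36, adjusted p = 1.1e-06). At 5 weeks it had 115, 168, 85.2 and 186 CPM in knockout cells, against 64.8, 58.6 and 82.6 CPM in wild-type (1.01, SE 0.34, adjusted p = 0.0425). That call was lost without knockout replicate 2 (0.100) or 4 (0.110) and without wild-type replicate 1 (0.115), 2 (0.156) or 3 (0.0771). With all libraries kept, it was also lost with no filter on low counts (adjusted p = 0.092) and with a replicate block (0.0931). Ms4a6d was higher in knockout cells at 10 weeks and lower at 5 weeks. It had 86.2, 119 and 108 CPM in knockout cells, against 55.8, 67.1, 60.9 and 51.0 CPM in wild-type cells, at 10 weeks (0.84, SE 0.15, adjusted p = 0.000313). It had 59.2, 70.1, 60.4 and 46.4 CPM in knockout cells, against 90.4, 81.4 and 95.2 CPM in wild-type cells, at 5 weeks (-0.59, SE 0.15, adjusted p = 0.00974). Ms4a6c was called at neither time (0.32 at 10 weeks and -0.08 at 5 weeks). Of 7 members, 4 had a larger knockout effect at 10 than at 5 weeks in the test of the difference, where 13.5% of genes were called and 7.57% upward. The gain was 3.06 for Ms4a7 (SE 0.47, adjusted p = 0.00117), 2.02 for Tmem176a (SE 0.50, adjusted p = 0.0172), 1.94 for Tmem176b (SE 0.38, adjusted p = 0.00410) and 1.43 for Ms4a6d (SE 0.21, adjusted p = 0.000542). The Tmem176a difference was lost without 5-week wild-type replicate 2 (0.0507).

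**Figure D4:**
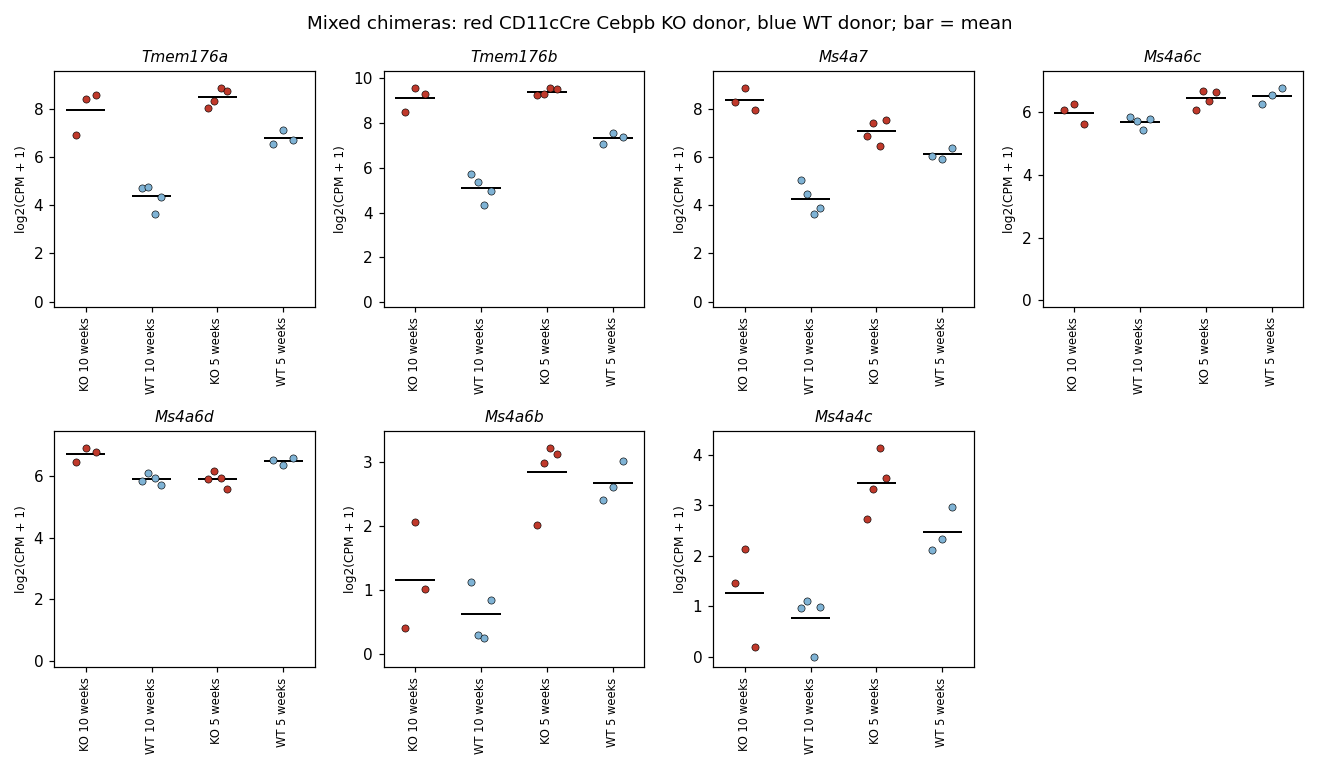
Log2(CPM + 1) of 7 members in chimera libraries, 1 point per library with a bar at the group mean, in the order knockout and wild type at 10 weeks, then knockout and wild type at 5 weeks. Wild-type cells at 10 weeks are the lowest group for the TMEM176 genes and Ms4a7, while the knockout cells stay high.

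All 7 tested members were lower in wild-type cells at 10 than at 5 weeks, where 18.7% of genes were called and 10.8% downward. The log2 fold changes were -2.92 (SE 0.59) for Ms4a6b, -2.54 (SE 0.66) for Ms4a4c, -2.43 (SE 0.37) for Tmem176a and -2.18 (SE 0.28) for Tmem176b. They were -1.78 (SE 0.34) for Ms4a7, -0.87 (SE 0.18) for Ms4a6c and -0.60 (SE 0.15) for Ms4a6d. Adjusted p-values lay between 5.6e-05 and 0.0126, and that of Ms4a4c was 0.0503 without 5-week wild-type replicate 3. In knockout cells 2 were higher and 2 lower at 10 than at 5 weeks, where 31.5% of genes were called, 15.8% upward and 15.7% downward. Ms4a7 (1.29, adjusted p = 0.00828, and 0.0515 without 10-week knockout replicate 2) and Ms4a6d (0.83, adjusted p = 0.000736) were higher. Ms4a4c (-2.47, adjusted p = 0.00604) and Ms4a6b (-1.96, adjusted p = 0.0120) were lower. Tmem176a (-0.42, adjusted p = 0.389) and Tmem176b (-0.24, adjusted p = 0.537) were not called. A replicate block within week was also fitted, but its blocks are nested in week. The 10 against 5 week contrast then depends on which replicates serve as reference, so this block cannot decide it. It gave 1 member higher and 1 lower in knockout cells, where 1320 of 11136 genes were called. In knockout cells it did not call Ms4a7 (adjusted p = 0.153) or Ms4a6b (0.127). In wild-type cells it did not call Ms4a6b (0.0614) or Ms4a6d (0.656). No conclusion is drawn from these values. Ms4a4c had 1.77, 3.37 and 0.145 CPM in knockout cells at 10 weeks, against 5.63, 9.03, 16.7 and 10.7 CPM at 5 weeks. It had 0.960, 1.15, 0 and 0.989 CPM in wild-type cells at 10 weeks, against 3.33, 4.01 and 6.82 CPM at 5 weeks.

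Markers of other cells moved along these contrasts. Dendritic cell markers summed to 317 to 1397 CPM in knockout cells at 10 weeks, against 36.4 to 124 CPM in wild-type cells, and to 2162 to 3871 CPM in knockout cells at 5 weeks, against 498 to 650 CPM in wild-type cells; 4 of 6 tested were higher at each time, and Siglech was at 0 in both 10-week groups. Interstitial or monocyte-derived macrophage markers summed to 15110 to 21470 CPM in knockout cells at 10 weeks, against 2398 to 5003 CPM in wild-type cells (7 of 8 tested higher), and to 6519 to 10630 CPM at 5 weeks, against 7152 to 7759 CPM (0 of 8 higher, 3 lower). Interferon response genes fell in both genotypes, with 12 of 15 lower in wild-type and 11 of 15 lower in knockout cells at 10 against 5 weeks. The share of mitochondrial counts was 0.421 to 0.898% in knockout cells at 10 weeks, against 0.147 to 0.185% in wild-type cells, and 0.173 to 0.262% in knockout cells at 5 weeks, against 0.105 to 0.197% in wild-type cells. Alveolar markers summed to 15860 to 27310 CPM in wild-type cells at 10 weeks, against 4088 to 9195 CPM at 5 weeks. The part of these shifts in the member values was not tested.

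Levels were next ordered over the 31 groups, on CPM scaled within each experiment. Tmem176b was highest in E18 Cebpb -/- macrophages (1324 ± 83.1 CPM, SD, n = 4), then in Csf2rb -/- macrophages (1043 ± 233, n = 3), which overlapped, and then in chimera knockout cells at 5 weeks (683 ± 73.3, n = 4) and 10 weeks (580 ± 197, n = 3). Ms4a7 was highest in facility 2 Cebpb -/- females (527 ± 173, n = 2), with the next groups, 10-week chimera knockout cells (337 ± 113, n = 3) and the matched Cebpb -/- cells (263 ± 89.0, n = 3), overlapping their neighbours in turn. Ms4a6c was highest in wild-type Ly6Chi monocytes (837 ± 36.5, n = 3), above the Csf2rb -/- macrophages (713 ± 64.6, n = 3) without overlap, and lowest in wild-type males (10.0 ± 4.19, n = 2). Ms4a6b and Ms4a4c shared their first 3 groups, Csf2rb -/- macrophages (328 ± 35.0 and 465 ± 180, n = 3) and the monocytes of both genotypes (240 to 384 CPM on average), with no overlap to the next group (52.3 and 49.1 CPM). Ms4a6d lay between 58.7 ± 6.91 CPM (n = 4) in 10-week wild-type chimera cells and 355 ± 96.3 CPM (n = 4) in Cebpb -/- monocytes. Ms4a4a, the Dectin-1 partner, never passed 5.75 CPM, its value in a wild-type Ly6Chi monocyte library, and had no count in most adult groups.

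Across the 99 libraries, with each log2(CPM + 1) value centred on its experiment's control libraries, the 2 TMEM176 genes were most like each other (Pearson r = 0.965). The next genes for Tmem176a were Runx3 (0.908) and Chn2 (0.904), and those for Tmem176b were Chn2 (0.919) and Itgb7 (0.911), among 8058 genes with a mean of at least 10 CPM. Ms4a7 was most like Arhgef10l (0.867), Ccl7 (0.843) and Cox6a2 (0.843), Ms4a4c like Plac8 (0.875), Ly6a (0.853) and Ifitm6 (0.851), and Ms4a6b like Ms4a4c (0.834), Fam26f (0.816) and Slfn1 (0.796). Ms4a6c was most like Clec12a (0.823), Slfn9 (0.806) and Ms4a6b (0.796), Ms4a6d like Ifi209 (0.768), Dram2 (0.762) and Mndal (0.743), and Ms4a4a like Hps3 (0.553), Lair1 (0.523) and Klf6 (0.497). These are descriptions over libraries that share groups and experiments, and the TMEM176 pair also shares sequence in the genome.

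Of 12 other MS4A family genes, 3 passed the filter in any comparison. Ms4a8a was called lower in 15 and higher in 2 of 21 comparisons. It had 117 to 140 CPM in male Cebpb -/- cells, against 777 to 847 CPM in +/+ cells (-2.66, SE 0.37, adjusted p = 0.000113), and 2.71 to 9.15 CPM in Cebpb -/- Ly6Chi monocytes, against 54.8 to 81.8 CPM in +/+ (-3.74, SE 0.32, adjusted p = 9.4e-07). Its 2 rises were those with time in the chimeras, 2.32 in wild-type and 1.11 in knockout cells. Ms4a14, next to Ms4a7 in the cluster, was called higher in 5 of 9 and lower in 0 of 9 comparisons, for example with 5.19 to 19.7 CPM in facility 2 Cebpb -/- females, against 0 to 0.158 CPM in +/+, and 5.63 to 7.91 CPM in 10-week chimera knockout cells, against 0 to 1.03 CPM in wild-type libraries (3.78, SE 0.54, adjusted p = 3.5e-05). Ms4a4b was tested in only 3 comparisons and called in 1, in Csf2rb -/- cells (12.1 to 42.6 CPM against 0.268 to 1.40 CPM, 5.15, adjusted p = 0.00348). Without a call, it was also apart upward in matched Cebpb -/- cells (1.74 to 12.3 CPM against 0 to 0.231 CPM). It was apart downward in Cebpb -/- Ly6Chi monocytes (2.71 to 10.3 CPM against 15.1 to 20.1 CPM).

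Genes of the pathways in which the members act were taken from fixed lists. One list held candidate partners of MS4A proteins, of which 11 were measured. Dectin-1 and VSIG4 are not among these 11, and partnership with the members was not tested. Fcgr2b, the inhibitory Fc receptor, was higher in 15 and lower in 1 of 21 comparisons. Trem2, a lipid receptor of macrophages, was higher in 12 and lower in 3, and the activating receptor Fcgr4 higher in 1 and lower in 14. In Cebpb -/- CD11b high cells, where 24.0% of all tested genes were called and 12.2% upward, 5 of the 11 rose and 1 fell, led by Fcgr2b (4.07, adjusted p = 2.8e-09) and Trem2 (2.80, adjusted p = 4.3e-08). Of the MHC class II pathway, 11 of 11 genes rose in both Lip/Lip sorts, where 20.8% (CD11b high) and 14.0% (CD11b low) of genes rose, led by H2-Eb1 (8.00 in CD11b high and 6.87 in CD11b low cells), the antigen-presenting β chain, whereas in Cebpb -/- CD11b high cells 7 of 10 rose. In Ly6Chi monocytes, where 1.99% of genes rose, 5 of 11 rose, led by H2-Eb1 (2.43) and H2-Aa (2.30). Over the 21 comparisons H2-Eb1 was higher in 17 and lower in 2. Of 8 inflammasome genes, Il18, an inflammasome substrate, was lower in 15 and higher in 1 comparison, and the sensor Nlrp3 was lower in 5 and higher in 0. In Cebpb -/- CD11b high cells 1 rose and 4 fell, beside the 24.0% of genes called in either direction, led by Il18 (-3.57) and Il1b (-3.41).

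Chromatin was read from peak lists that the authors called for each library: 27105 and 22558 peaks in 2 anti-C/EBPβ ChIP-seq libraries of wild-type alveolar macrophages, and 88282 to 101952 ATAC-seq peaks in 3 libraries of MxCre+ Cebpb flox/flox cells and 81880 and 92432 in 2 of MxCre+ control cells. The ATAC cells were lavage macrophages cultured with CSF2 and then given interferon alpha, which induces Mx1-driven Cre, so they differ from the RNA libraries in culture and in interferon exposure. A C/EBPβ peak in both ChIP libraries lay within the gene span extended by 1 kb for 4 of 8 members (Ms4a4a, Ms4a4c, Ms4a6c and Ms4a6d), against 29.4% of 21887 protein-coding genes. Extended by 10 kb it was 5 of 8, with Ms4a6b added, against 39.3%, and with a -log10 q of at least 10 in both it was 2 of 8, against 20.4%. The scores are the authors' values. The strongest peaks near a member lay downstream of Ms4a4c (chr19:11430840-11431887, -log10 q of 66.1, and chr19:11430976-11431835, 70.5) and about 4 kb before the Ms4a6c start (chr19:11464676-11465563, 35.7, and chr19:11464751-11465488, 48.7).

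**Figure D5:**
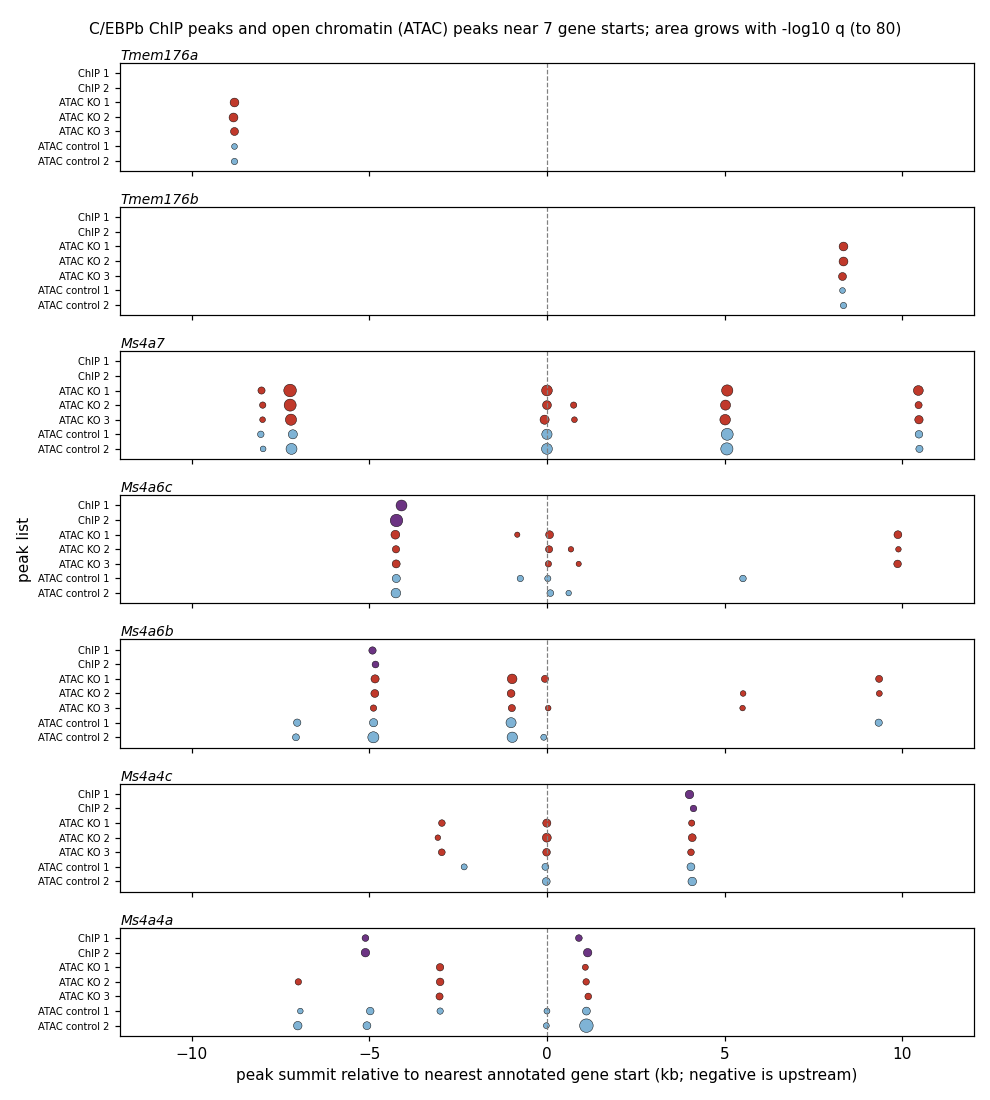
Summits of the authors' peaks within 10 kb of the span of 7 members, where they fall on the plotted axis, as distance in kb from the annotated start; purple is anti-C/EBPβ ChIP-seq, red ATAC-seq of Cebpb knockout cells and blue ATAC-seq of control cells, with the point area set by -log10 q. C/EBPβ peaks appear at Ms4a4a, Ms4a4c, Ms4a6b and Ms4a6c, and none at the TMEM176 genes or Ms4a7.

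Neither TMEM176 gene nor Ms4a7, the 3 members called most often, had a C/EBPβ peak within 10 kb in either library. At Tmem176b the only ATAC peak within 10 kb lay just beyond the far end of the gene (chr6:48832385-48832836 in 1 knockout library), with -log10 q of 20.9, 21.4 and 16.0 in the 3 knockout lists and 5.18 and 7.42 in the 2 control lists; scores of separate lists are not on one scale. Ms4a7 had an ATAC peak at its start in all 5 lists. ATAC peaks within 1 kb of the gene were in every list for 6 of 8 members, against 65.5% of protein-coding genes, a share near the background. At Ms4a4a, a peak at the start was listed in both control lists (-log10 q of 5.83 and 5.66) and in none of the 3 knockout lists. Farther from the gene spans, this also held before Ms4a4a (chr19:11370289-11370682) and before Ms4a6b (chr19:11511340-11511647). Peaks in all 3 knockout lists and neither control list lay at Ms4a4c (chr19:11404541-11404879; 9.06, 4.55 and 9.89) and in Ms4a6c (chr19:11478894-11479418; 15.4, 4.38 and 14.0). The difference between genotypes was not tested.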

How the data were processed

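Bulk RNA-seq libraries (99) were deposited by the authors as 3 tables of raw read counts per gene, made with STAR 2.6.1a and featureCounts 1.6.3 on GRCm38/mm10, per the submitters' processing notes, which also name BWA 0.7.17, Bowtie2 and MACS2 2.2.7.1. The authors' deposited peak lists, 1 per library, give for each peak a score, a fold over background and -log10 p and q values. The strand setting of the counting is not stated. The 11 experiments were fitted separately in edgeR 4.0.16 (R 4.3.3): TMM scaling, filterByExpr (minimum count 10), robust quasi-likelihood test, Benjamini-Hochberg adjustment over all tested genes, threshold 0.05. CPM used TMM-scaled totals, so levels set across experiments were normalized separately. Intervals and floors of 3 counts cover counting error only. Alternatives were DESeq2 1.42.0, no filter on low counts, 1 fit per table, each replicate left out, and replicate blocks. The fits were tested on simulated data. The plot of log2 fold changes by comparison shows every member in the 21 comparisons of groups, with n.t. for those under the filter. The text does not give values of every member in every comparison. For the pathway lists, counts and up to 2 of the largest called changes are given for some comparisons only. The members and lists were chosen with earlier results of these data known. One gene of a marker list is not reported here and was left out of that list's sums and counts. Same-numbered Lip/Lip CD11b high and low libraries deviated together (4 pairs, correlations 0.105 to 0.248) and may be pairs. Their reported p-values carry no block and may miss this pairing. The block by replicate number also ties Lip +/+ libraries to Lip/Lip libraries of the same number. Lip +/+ and CD11b low libraries of the same number did not deviate together (-0.05, -0.066 and -0.041). Same-numbered knockout and wild-type chimera libraries also deviated together at 10 weeks (0.124, 0.098 and 0.110), and unevenly at 5 weeks (0.354, 0.016 and 0.057). The labels name no hosts, so chimera numbers were not taken as pairs, and the chimera p-values may miss a pairing. Other numbers were not taken as pairs either. Reported fits carry no block. Blocked values stand beside some of the calls they change, but not in every comparison. The block within week is nested in week and cannot decide a difference over time. A group left with 1 library was assumed to vary like the others of its fit.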

Additional observations from a re-analysis of the deposited data

Results flagged for a closer look

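In groups of 4 libraries, 5 of 72 gene and group pairs (6.94%, where chance gives about 5%) held 1 library far from the rest. Ms4a7 had 14.8 CPM in Lip/Lip CD11b low replicate 1 and 19.5 to 19.9 CPM in the others. Ms4a6c had 18.5 CPM in Lip/Lip CD11b high replicate 4 and 9.25 to 10.3 CPM in the others, and 187 CPM in Csf2rb +/+ replicate 3 at E18 against 224 to 227 CPM in the others. Ms4a4c had 0 CPM in 10-week wild-type chimera replicate 3 and 0.960 to 1.15 CPM in the others. Tmem176a had 1.04 CPM in Cebpb +/+ replicate 4 of the CD11b-sorted set and 0 CPM in the others.

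Effects of the knockout differed between times, and between males and females, in a test of the difference itself; the labels name no facility for the males, so sex and facility cannot be told apart. Males minus the mean of females gave -3.25 for Ms4a7, -0.99 for Ms4a6d and -6.01 for Tmem176b on the log2 scale. The Ms4a6d call was lost in 9 of 13 fits that left out 1 library, and the Tmem176b size is not fixed, because facility 1 +/+ females had no count. In the chimeras, 10 minus 5 weeks gave 3.06 for Ms4a7, 1.43 for Ms4a6d, 2.02 for Tmem176a and 1.94 for Tmem176b.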

How the results depend on the processing

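Of 24 comparisons, 18 kept a count of called members within 1.5 times under every alternative run. Counts changed as follows, and the cause was not tested. In Lip/Lip CD11b low cells the count was 3, and 1 with DESeq2 (1745 of 10992 genes called). It was 1 in the fit over the whole table (824 of 11434) and 1 with the replicate block (2210 of 8918). Leave-one-out fits gave 1 to 3. In matched Lip/Lip cells it was 0, and 2 with no filter (551 of 13031 genes called). It was also 2 with DESeq2 (658 of 11565) and in the fit over the whole table (659 of 10595). Leave-one-out fits gave 0 to 2. In heterozygous cells it was 0, and 1 with DESeq2 (216 of 9796 genes called) and 2 with no filter (176 of 14421). For Cebpb -/- CD11b high against low cells it was 1, and 3 with DESeq2, where 391 of 10995 genes were called. Leave-one-out fits gave 1 to 2. With LyzM Cre it was 0, and 1 with the crossed pairing as replicate block, where 747 of 8654 genes were called. Leave-one-out counts are not given here, because each such fit leaves 1 library in a group. In chimera knockout cells at 10 against 5 weeks it was 4, and 2 with a replicate block within week (1320 of 11136 genes called). That block is nested in week and cannot decide a difference over time, so no conclusion is drawn from its count. Members with a C/EBPβ peak numbered 4, and 2 at a -log10 q of at least 10. The block within facility, sex or week and the crossed pairing, tried because numbers of facility 1 females (-0.142) and of the LyzM set (-0.104) were negatively correlated, were chosen after seeing the data.

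No called member reversed in 1036 alternative values (979 kept their call, 57 lost it); of 856 values of members without a call, 40 reversed and 29 gained a call. The reversals outside leave-one-out were Ms4a4c (0.56, DESeq2) and Ms4a6d (-0.01, replicate block within facility) in facility 2 minus facility 1, Ms4a6c in Lip/Lip CD11b high against low (0.05, replicate block) and Ms4a6d in Lip/Lip CD11b high against +/+ (-0.01, replicate block). Leave-one-out ranges that crossed 0 for facility 2 minus facility 1 were -1.98 to 1.88 (Ms4a4c), -1.45 to 2.46 (Ms4a6b), -0.15 to 0.34 (Ms4a6c), -0.47 to 0.50 (Ms4a6d) and -0.69 to 0.78 (Ms4a7), and for males minus females -2.83 to 2.23 (Ms4a6b). In chimeras they were -0.93 to 0.58 (Ms4a4c) and -0.30 to 1.73 (Ms4a6b) for 10 minus 5 weeks, -0.08 to 1.97 (Ms4a6b) at 10 weeks, -0.21 to 0.04 (Ms4a6c) at 5 weeks and -0.47 to 0.01 (Tmem176b) in knockout cells over time. At E18 they were -0.26 to 0.25 (Ms4a4c) and -0.07 to 0.18 (Ms4a6d) in monocytes, and -0.31 to 0.01 (Ms4a6c) and -0.06 to 0.41 (Ms4a7) in Cebpb -/- macrophages. In adults they were -0.02 to 0.56 (Ms4a6c) and -0.75 to 0.03 (Ms4a6d) with LyzM Cre, -0.35 to 0.43 (Ms4a6c) in Lip/Lip CD11b high against low, -0.05 to 0.16 (Ms4a6d) in Lip/Lip CD11b high against +/+ and -0.43 to 0.19 (Ms4a6d) in matched Lip/Lip cells. Without one library, calls were gained by Ms4a4c (1.72, without knockout replicate 3), Ms4a6b (1.59, without knockout replicate 1) and Ms4a6c (0.48, without knockout replicate 3) in 10-week chimeras and by Ms4a4c in facility 1 females (without Cebpb -/- replicate 1, which leaves 1 library, assumed to vary like the other groups; the size is not fixed). Ms4a4c also gained a call there with DESeq2 (adjusted p = 0.0389) and with no filter (0.0290), and in 5-week chimeras with the block within week (adjusted p = 0.0213). In libraries where 3 counts equal up to 5.20 CPM, Ms4a4c, Ms4a6b and Ms4a4a lie near the limit of detection.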
